A study of Mus musculus with 8 samples.

Results

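The genes described here are 10 mouse genes known from eosinophils, out of 23469 in a table of lung RNA-Seq read counts. They are picked by gene name and not by a cutoff on a measured value, though with earlier results of these data known, and each was found by its Entrez identifier. They are 5 eosinophil-associated ribonucleases (Rnase2a, Ear1, Ear2, Ear6 and Ear10), 2 granule proteins (Prg2 and Epx) and 3 surface receptors (Siglecf, Ccr3 and Il5ra). C57BL/6 wild type mice and DDAH1-transgenic mice, which carry an added gene for dimethylarginine dimethylaminohydrolase 1, an enzyme that degrades the nitric oxide synthase inhibitor ADMA, were treated through the trachea. They received 100 µg of extract of house dust mite (HDM), an allergen, in 50 µl of PBS, or just the PBS, on 3 occasions in each of 3 weeks, and lungs were collected after 24 h. Each of the 4 groups is 1 pool of RNA from 4 mice, from which 2 libraries were made and sequenced. The promoter and the sequence of the transgene, and the sex and age of the mice, are not given in the sources used here.

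Eosinophils are granulocytes of allergic inflammation. IL-5, acting on a receptor whose alpha chain is encoded by Il5ra, drives their production and survival, and eotaxins draw them into the lung through Ccr3. Their granules hold major basic protein (Prg2), eosinophil peroxidase (Epx) and secreted ribonucleases, which in the mouse form a family of related genes, while Siglecf encodes a surface receptor for sialic acids that is also carried by alveolar macrophages, as Ear1 and Ear2 are known to be.

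The SD given for a group is a technical spread, between its 2 libraries of 1 pool, and p-values cover that spread and no variation between mice. Total counts lay between 5694928 and 11929374 per library, the lowest in replicate 1 of HDM-treated DDAH1-transgenic mice. Levels are given as CPM, read counts scaled to library size after TMM normalization of all 8 libraries together. Flrt2, used with Ddah1 as a check of the genotype labels, was between 21.3 and 30.8 CPM in wild type and between 239.5 and 332 CPM in DDAH1-transgenic libraries, whereas Ddah1 was 65.4 ± 16.4 against 41.0 ± 9.51 CPM in transgenic and wild type mice after PBS and 34.2 ± 1.08 against 43.9 ± 1.15 CPM after HDM (SD, n = 2). Flrt2 thus set the libraries of the genotype labels apart after PBS and after HDM, while Ddah1 was lower in the transgenic libraries after HDM. The study lists Flrt2, from these same data, as higher in DDAH1-transgenic lungs after either treatment. Its separation was therefore known beforehand and is not an independent check of the labels. Whether the Ddah1 counts include reads of the transgene is not known, since its sequence is not given. Each genotype difference below is one between libraries labelled wild type and libraries labelled DDAH1-transgenic. Xist, which is expressed where an X chromosome is silenced, ranged from 11.3 to 20.8 CPM across the PBS libraries and from 2049 to 3042 CPM across the HDM libraries, and the Y-linked Ddx3y was between 58.7 and 69.0 CPM in the former and had 2 or 3 counts in each of the latter. Treatment and the sex of the mice therefore cannot be told apart in any comparison of HDM with PBS. The same holds where the genotype difference after HDM is set against that after PBS. The other genotype comparisons are within 1 treatment. Markers of thymocytes, 6 genes, summed to 60.4 and 60.7 CPM in the libraries of PBS-treated wild type mice and to at most 15.4 CPM elsewhere.

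The 5 ribonucleases lie on chromosome 14 of the mouse (GRCm38.p6). Ear1 (Entrez 13586) is at chr14:43818765-43819639, Ear10 (93725) at chr14:43922898-43923596 and Ear2 (13587) at chr14:44102654-44103531. Rnase2a (93726), formerly Ear11, is at chr14:51255261-51256112 and Ear6 (93719) at chr14:51853768-51854643. Their coding sequences have 468 or 471 bases, and those of Ear2 and Ear10 were 97.0% identical, those of Ear1 and Ear2 94.9%, those of Ear2 and Ear6 87.7% and those of Ear2 and Rnase2a 79.6%. A stretch of 60 coding bases shows why the reads, which were 50 bases long, cannot always be given to 1 gene. It is printed from the GENCODE M21 transcripts 5′ to 3′ for bases 207 to 266 of each coding sequence, and capitals mark bases that differ from Ear2 in the alignment.
Ear2: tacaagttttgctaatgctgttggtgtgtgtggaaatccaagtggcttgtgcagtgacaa
Ear1: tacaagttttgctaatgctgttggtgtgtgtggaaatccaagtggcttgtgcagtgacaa
Ear10: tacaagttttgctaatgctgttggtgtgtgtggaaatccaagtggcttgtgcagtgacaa
Ear6: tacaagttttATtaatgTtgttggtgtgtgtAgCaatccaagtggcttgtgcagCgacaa
Rnase2a: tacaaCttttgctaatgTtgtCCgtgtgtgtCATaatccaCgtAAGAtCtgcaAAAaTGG
Rnase2b: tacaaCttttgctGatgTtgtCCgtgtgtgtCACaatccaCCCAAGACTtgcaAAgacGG
Ear1, Ear2 and Ear10 were identical over this stretch, Ear6 differed from Ear2 at 6 positions, Rnase2a at 19 and Rnase2b, a relative of Rnase2a that is not among the 10 genes, at 21.

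Over the whole coding sequence, 62.5% of the stretches of 50 bases in Ear1 occurred in a transcript of another gene, as did 56.2% of those in Ear10 and 45.7% of those in Ear2. None of those in Rnase2a, Ear6, Rnase2b, Prg2, Epx, Ccr3 or Il5ra did, and 0.361% of those in Siglecf did. No sharing was thus found for Rnase2a, and the counts of Ear1, Ear2 and Ear10 are uncertain as to gene. The search covered exact matches in annotated transcripts. Sharing with mismatches, or with genes absent from that annotation, was not tested. How reads with several alignments were counted is not given in the sources used here. The rows of Ear3 and Ear12, which are related genes without a position in the annotation used, held identical counts in all 8 libraries, between 67.3% and 87.9% of those of Ear2.

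**Figure D1:**
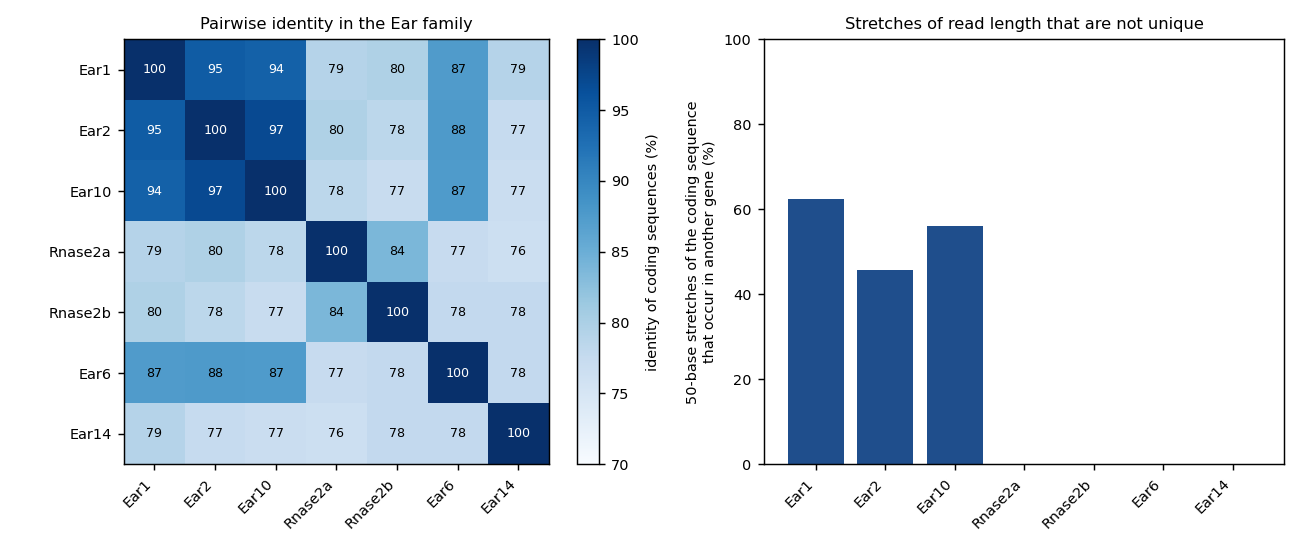
Left, percent identity of the coding sequences of 7 genes of the Ear family for each pair, with darker blue for higher identity. Right, percent of the stretches of 50 bases in each coding sequence that also occur in a transcript of another gene. Ear1, Ear2 and Ear10 form a block of at least 94.3% identity with 45.7% to 62.5% of their stretches shared, and the other 4 genes share none.

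The promoters of Ear2, Ear1 and Rnase2a are shown because these genes are close in sequence and differed in how far their levels moved after HDM. Each is 250 bases before to 50 bases after the annotated start, from RefSeq (GRCm38.p6), 5′ to 3′ on the strand of the gene, at chr14:44102404-44102703 (plus strand) for Ear2, chr14:43819590-43819889 (minus strand) for Ear1 and chr14:51256063-51256362 (minus strand) for Rnase2a. Capitals mark matches to TTGCNNAA, letters bound by C/EBP factors.
Ear2: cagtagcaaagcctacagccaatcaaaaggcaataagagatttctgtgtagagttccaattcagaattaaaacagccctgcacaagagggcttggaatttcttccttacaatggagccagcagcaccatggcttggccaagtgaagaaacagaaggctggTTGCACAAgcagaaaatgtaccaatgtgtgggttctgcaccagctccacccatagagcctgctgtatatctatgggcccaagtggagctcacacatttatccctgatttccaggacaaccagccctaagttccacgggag
Ear1: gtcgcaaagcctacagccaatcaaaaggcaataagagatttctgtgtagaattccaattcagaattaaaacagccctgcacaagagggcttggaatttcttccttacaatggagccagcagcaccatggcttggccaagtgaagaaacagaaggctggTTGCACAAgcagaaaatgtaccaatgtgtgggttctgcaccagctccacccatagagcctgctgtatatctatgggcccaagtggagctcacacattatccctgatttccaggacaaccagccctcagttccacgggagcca
Rnase2a: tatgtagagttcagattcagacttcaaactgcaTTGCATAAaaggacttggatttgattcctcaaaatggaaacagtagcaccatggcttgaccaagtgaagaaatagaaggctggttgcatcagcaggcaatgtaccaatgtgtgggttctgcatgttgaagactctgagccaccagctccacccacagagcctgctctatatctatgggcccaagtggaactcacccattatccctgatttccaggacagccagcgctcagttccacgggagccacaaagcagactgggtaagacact
After alignment the promoters of Ear1 and Ear2 were 97.0% identical, and those of Ear2 and Rnase2a 64.6%. Of the 10 genes, 9 had a promoter in the table. TTGCNNAA, searched on both strands, was in 4 of the 9 (Ear1, Ear2, Ear10 and Rnase2a) and in 10.8% of all 32851 promoters of this length, and the sites of Ear1, Ear2 and Ear10 lie in their shared sequence. The GATA factor letters AGATAA were in 2 of the 9 (Il5ra and Ccr3) and in 11.2% of all promoters, and TGATAA was in 1 of the 9 (Siglecf) and in 9.05% of all. The STAT6 motif, TTC and GAA with 4 free bases between them, was in 2 of the 9 (Il5ra and Epx) and in 6.95% of all. No motif here overlaps another, and a match is only a match of letters.

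Rnase2a was close to absent after PBS and was counted in each HDM library. Wild type libraries held 0 and 1 counts after PBS and 563 and 359 after HDM, and DDAH1-transgenic libraries held 4 and 0 after PBS and 78 and 90 after HDM. Scaled for library size, this was 50.3 and 36.1 CPM in HDM-treated wild type mice and 11.7 and 6.97 CPM in HDM-treated DDAH1-transgenic mice. The lower library of the former was above the higher library of the latter, and the 4 PBS libraries were at or below 0.399 CPM.

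Ear2 was counted in all 8 libraries and was highest in HDM-treated wild type mice. It had 54.2 and 44.4 CPM in PBS-treated wild type, 172 and 180 in HDM-treated wild type, 67.1 and 52.2 in PBS-treated DDAH1-transgenic and 105 and 98.4 in HDM-treated DDAH1-transgenic mice. The HDM libraries of the 2 genotypes did not overlap, nor did either overlap with PBS. With 2 libraries per group a lack of overlap says little, and its share over all genes was not counted. Between the genotypes after HDM Ear1 did not overlap either, at a log2 fold change of -0.03. Ear10 had 19.5 and 11.7 CPM in PBS-treated wild type, 35.0 and 39.6 in HDM-treated wild type, 21.2 and 17.8 in PBS-treated DDAH1-transgenic and 20.5 and 23.8 in HDM-treated DDAH1-transgenic mice. For Ear10, HDM-treated wild type mice stood above the other 6 libraries, which lay between 11.7 and 23.8 CPM. Ear1 varied the least of the 3 genes, with 37.4 and 27.9 CPM in PBS-treated wild type, 50.3 and 47.9 in HDM-treated wild type, 46.5 and 42.2 in PBS-treated DDAH1-transgenic and 47.8 and 46.0 in HDM-treated DDAH1-transgenic mice. Ear6 was low, between 12 and 68 counts per library, and its 2 libraries differed 2.03-fold in PBS-treated wild type and 2.34-fold in HDM-treated DDAH1-transgenic mice.

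The counts of the granule protein genes were too low or too uneven to tell whether they followed the ribonucleases. Prg2 had 6 and 35 counts in PBS-treated wild type, 9 and 70 in HDM-treated wild type, 2 and 7 in PBS-treated DDAH1-transgenic and 40 and 144 in HDM-treated DDAH1-transgenic mice. Its 2 libraries of HDM-treated wild type mice, made from the same RNA pool, were 0.805 and 7.03 CPM, a ratio of 8.74. Epx, the gene of eosinophil peroxidase, had 1 count in 1 library of HDM-treated DDAH1-transgenic mice and 0 in the other 7. A group with 0 counts in both libraries allows up to 3 counts, between 0.135 and 0.154 CPM across the groups, and these limits cover counting error only. Prg3, a granule protein gene related to Prg2, had 9 and 1 counts in HDM-treated DDAH1-transgenic mice and 0 in the other 6 libraries. RNA of eosinophil peroxidase was thus near 0 in all groups, which does not give the number of eosinophils. The 10 genes are described as a list of names and not as a measure of eosinophils.

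Of the receptors, Ccr3 was counted in 6 libraries, in most of them at few reads, and Siglecf and Il5ra were present in all 8. Ccr3 had 6 and 0 counts in PBS-treated wild type, 138 and 16 in HDM-treated wild type, 1 and 1 in PBS-treated DDAH1-transgenic and 22 and 0 in HDM-treated DDAH1-transgenic mice. Replicate 1 of HDM-treated wild type mice was 7.67 times replicate 2 in CPM. Siglecf was between 7.42 and 18.4 CPM in the 8 libraries, with both extremes after HDM. Il5ra was between 3.95 and 10.9 CPM, lowest in the 2 libraries of HDM-treated DDAH1-transgenic mice.

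**Figure D2:**
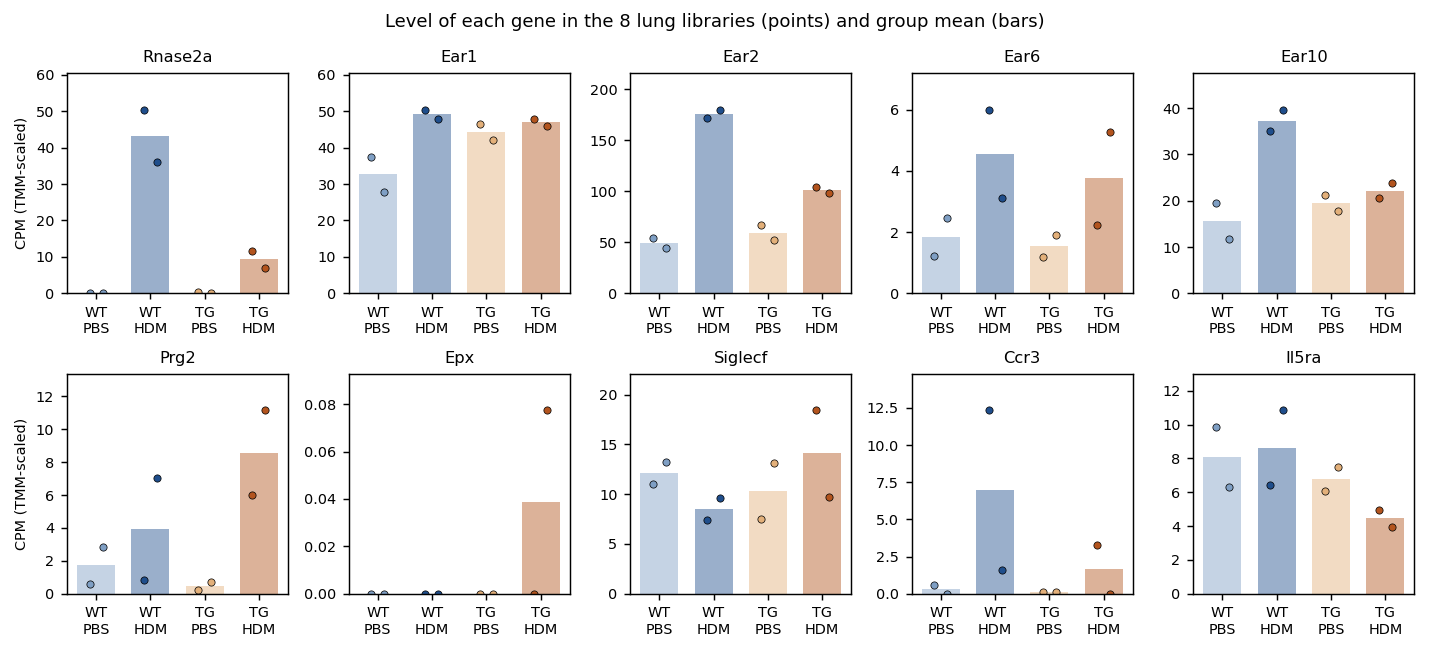
TMM-scaled CPM of each of the 10 genes in the 8 libraries, with a separate axis from 0 for each gene. Points are single libraries and bars the mean of the 2 libraries of a group (WT, wild type; TG, DDAH1-transgenic). Rnase2a is at or below 0.399 CPM in the PBS libraries and between 6.97 and 50.3 CPM in the HDM libraries, and Epx is at 0 in all libraries but 1, which is at 0.0775 CPM.

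Per kilobase of coding sequence, the scale for levels of different genes, the row of Ear2 was the highest of the 10 in each group, although the order among Ear1, Ear2 and Ear10 is uncertain because their sequences overlap. In HDM-treated wild type mice it was 374 ± 11.5 CPM per kilobase, followed by Ear1 with 105 ± 3.63, Rnase2a with 92.3 ± 21.5 and Ear10 with 79.1 ± 6.96 (SD, n = 2 libraries). Ear1 and Rnase2a, and Rnase2a and Ear10, differed by less than the SD of Rnase2a. The other 6 genes were at or below 9.73 CPM per kilobase. In HDM-treated DDAH1-transgenic mice Ear2 was 215.5 ± 9.31, Ear1 100.2 ± 2.69, Ear10 47.0 ± 4.89 and Rnase2a 19.9 ± 7.12 CPM per kilobase, so that Rnase2a stood below Ear10 there by more than either SD. In the PBS groups Rnase2a was 0.0873 ± 0.123 and 0.427 ± 0.604 CPM per kilobase, in wild type and DDAH1-transgenic mice, against 105 ± 14.7 and 127 ± 22.3 for Ear2. Rnase2a made up 10.8% and 7.72% of the counts of the whole Ear family (with the identical rows of Ear3 and Ear12 counted once) in HDM-treated wild type mice and 4.54% and 2.70% in HDM-treated DDAH1-transgenic mice. A read with several alignments may stand in more than 1 row. These are therefore shares of row counts and not of distinct reads.

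The first comparison asked whether the eosinophil-associated genes differed between the genotypes after HDM. Rnase2a was lower in HDM-treated DDAH1-transgenic mice than in HDM-treated wild type mice, at 9.33 ± 3.33 against 43.2 ± 10.1 CPM, and was the 1 gene of the 10 past the threshold. The related rows of Ear3 and Ear12, which are not among the 10, were also lower. Prg2 and Siglecf had positive differences that did not pass the test. In bulk RNA, fewer cells of a type and less RNA per cell cannot be told apart.

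Rnase2a had a log2 fold change of -2.18 with a standard error (SE) of 0.40 and an adjusted p of 0.016, a 4.54-fold difference. This was edgeR's quasi-likelihood test, adjusted by Benjamini and Hochberg's method over 15191 genes, which applies throughout. The value was -1.94 without HDM-treated wild type replicate 1 and -2.39 without replicate 2 in edgeR, so that the direction does not need both libraries. The call was lost in both fits, which leave 1 library in that group. Nearly all calls over all genes were lost there as well, so the loss is not particular to Rnase2a. Of the 10 genes 9 could be tested, Epx being too low, and 1 passed, where 2.44% of all genes did. In the lower direction the 1 gene compares with 0.599% of all genes, and in the higher direction none of the 10 passed, against 1.84%. By unadjusted p under 0.05 there were 3 of the 9, where 16.2% of all genes were. The log2 fold changes were below 0 for 7 and above 0 for 2, with a median of -0.71 beside 0.01 for all genes.

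Ear2 was 102 ± 4.39 against 176 ± 5.44 CPM, a log2 fold change of -0.76 (SE 0.20, adjusted p = 0.0808 in edgeR). It passed the threshold with DESeq2 (-0.77, adjusted p = 0.0122) and with an offset for transcript length (a loess per library) in edgeR (-1.36, adjusted p = 0.0183). Ear10 had a log2 fold change of -0.71 (SE 0.33, adjusted p = 0.307) and Ear1 one of -0.03 (SE 0.27, adjusted p = 0.974). The values of Ear1 and Ear2, whose promoters are 97.0% identical, lay apart, and the difference between them was not tested. The rows of Ear3 and Ear12 had a log2 fold change of -1.02 (SE 0.21, adjusted p = 0.029). It was -1.07 and -0.97 without replicate 1 or 2 of HDM-treated wild type mice. The call was lost in both of these fits, as were nearly all calls over all genes. Rnase2b had 47 and 36 counts in wild type and 0 and 10 in DDAH1-transgenic mice, a log2 fold change of -3.12 (SE 1.35, adjusted p = 0.278). With the exception of Ear1, whose value is near 0, these relatives had lower values in DDAH1-transgenic mice, and most of them did not pass.

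For Prg2 the log2 fold change was 1.17 (SE 0.88, adjusted p = 0.557) and for Siglecf 0.76 (SE 0.52, adjusted p = 0.515). Ccr3 had -2.11 (SE 1.43, adjusted p = 0.508) and turned to 0.0308 without HDM-treated wild type replicate 1, the library with 138 counts. Il5ra had -0.92 (SE 0.65, adjusted p = 0.526) and Ear6 -0.23 (SE 0.84, adjusted p = 0.929). The SE of Prg2, Ccr3 and Ear6 all exceeded the size of the difference seen in Ear2, so a difference of that size was not detectable in them. Transcript length moved with the genotype difference in the HDM libraries. Across 14454 genes the Spearman correlation of length and log2 fold change was -0.281, and the 936 genes with transcripts of at most 1000 bases had a median of 0.70, with 28.4% of them below 0. The ribonuclease transcripts have 678 to 893 bases, and with the offset Rnase2a moved to -2.78. With it 160 genes passed in all, 52.5% of them higher, beside 370 and 75.4% without it.

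**Figure D3:**
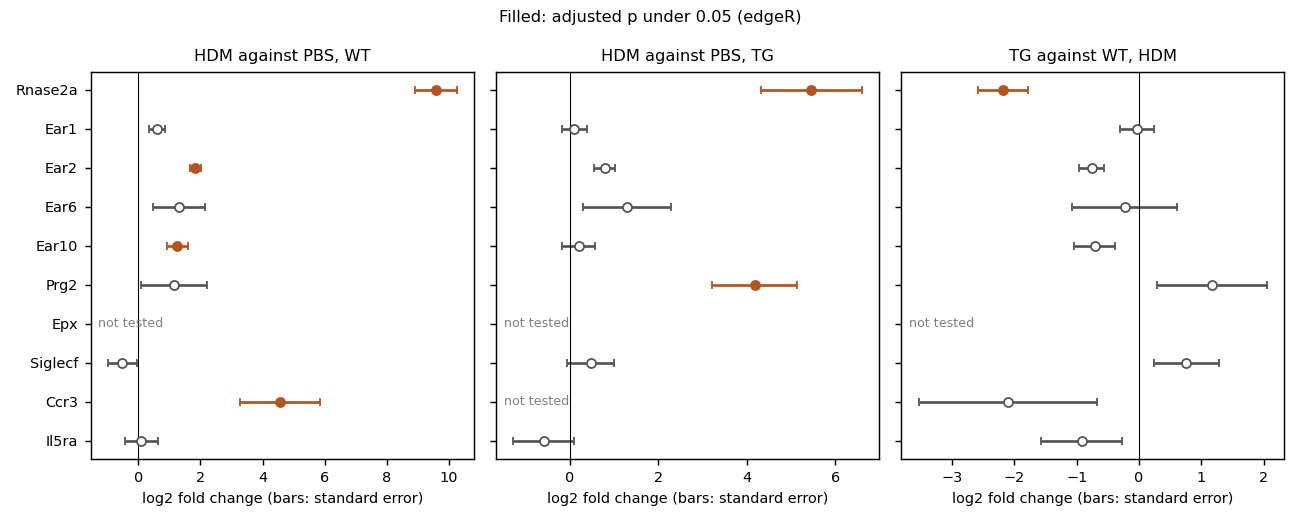
Log2 fold change of each gene (points) with its standard error (bars) for HDM against PBS in wild type mice (left), HDM against PBS in DDAH1-transgenic mice (middle) and DDAH1-transgenic against wild type mice after HDM (right), on separate axes. Filled points have an adjusted p under 0.05 in edgeR's quasi-likelihood test. Rnase2a is filled in all 3 panels, at 9.58, 5.46 and -2.18.

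The next comparison asked which of these genes differed between HDM-treated and PBS-treated wild type mice. Rnase2a, Ear2, Ear10 and Ccr3 rose, while Siglecf and Il5ra did not pass the test. Rnase2a had 922 counts after HDM against 1 after PBS, and Ear2 rose 3.57-fold. Of 9 tested genes 4 passed, all higher, where 6.74% of all genes passed and 4.44% passed as higher (2.30% as lower). Rnase2a and Ccr3 had at most 6 counts in each PBS library and passed the low-count filter through the HDM libraries, so the count of 4 is a description. The median log2 fold change was 1.26, beside 0.02 for all genes.

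Rnase2a had 43.6 CPM over both HDM libraries against 0.0451 over both PBS libraries, a ratio of 968 with a 95% exact counting interval from 173 to 38270, and a fitted log2 fold change of 9.58 (SE 0.66, adjusted p = 5.49e-07 in edgeR). Rnase2b, with 83 counts against 0, was 29.05-fold above the floor of 3 counts over the group. The floor and the interval cover counting error only. On average over the genes with more counts, the 2 libraries of a pool differed by more than that error. Ear2 had a log2 fold change of 1.84 (SE 0.18, adjusted p = 1.42e-05), and Ear3 and Ear12 one of 1.85 (SE 0.19, adjusted p = 2.54e-05). Ear10 had 1.26 (SE 0.34, adjusted p = 0.0384), which was 0.92 (adjusted p = 0.29) without PBS-treated wild type replicate 2 and 0.97 (adjusted p = 0.115) with the length offset in edgeR. Ear1 had 0.59 (SE 0.26, adjusted p = 0.224) and Ear6 1.31 (SE 0.83, adjusted p = 0.422). The ribonucleases thus all had positive values, and 3 of the 5 passed.

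Ccr3, the eotaxin receptor, had a log2 fold change of 4.56 (SE 1.29, adjusted p = 0.0494 in edgeR). Without HDM-treated wild type replicate 1 it was 2.42 (adjusted p = 0.531) and without PBS-treated replicate 2 it was 3.49 (adjusted p = 0.136), so that 1 library decides the call. Prg2 had 1.16 (SE 1.07, adjusted p = 0.617) and turned to -1.12 without HDM-treated replicate 2. Siglecf had -0.51 (SE 0.46, adjusted p = 0.605) and Il5ra 0.10 (SE 0.53, adjusted p = 0.949). The 2 PBS and 2 HDM libraries of Siglecf did not overlap, at 11.1 and 13.2 against 7.42 and 9.65 CPM, and those of Il5ra did.

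The same question in DDAH1-transgenic lungs gave 2 genes past the threshold, Rnase2a and Prg2, both higher after HDM. Ear2 came close and Ear1 and Ear10 hardly moved. Of 8 tested genes 2 passed, where 13.8% of all genes did, with 8.43% higher and 5.35% lower. Both genes had at most 7 counts in each PBS library and passed the low-count filter through the HDM libraries. The median log2 fold change of the 8 was 0.63, beside 0.03 for all genes.

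Rnase2a had 168 counts after HDM against 4 after PBS, a ratio of CPM of 41.8 with a 95% exact counting interval from 16.0 to 155, and a fitted log2 fold change of 5.46 (SE 1.14, adjusted p = 0.00845 in edgeR). It was 4.52 (adjusted p = 0.0782) without PBS-treated DDAH1-transgenic replicate 2. Prg2 was 8.57 ± 3.65 against 0.470 ± 0.382 CPM, a log2 fold change of 4.18 (SE 0.97, adjusted p = 0.0143). Its call was lost without PBS-treated replicate 1 (adjusted p = 0.111), PBS-treated replicate 2 (0.0699) or HDM-treated replicate 2 (0.0737), and with the length offset (3.18, adjusted p = 0.0566). Ear2 had 0.79 (SE 0.25, adjusted p = 0.0529, and 0.0324 in DESeq2), Ear10 0.21 (SE 0.37, adjusted p = 0.773) and Ear1 0.10 (SE 0.28, adjusted p = 0.859). With the length offset these turned to -0.24, -0.85 and -0.94, so that their direction depends on it, and 1325 genes passed in all, 48.5% of them higher, beside 2079 and 61.2% without it. Siglecf had 0.47 (SE 0.53, adjusted p = 0.624), Il5ra -0.59 (SE 0.68, adjusted p = 0.635) and Ear6 1.30 (SE 1.00, adjusted p = 0.448). Ccr3 was too low to be tested, with its 22 HDM counts in 1 library.

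After PBS no difference between the genotypes was detected in these genes. Of 6 tested genes 0 passed in edgeR, with 0 at an unadjusted p under 0.05 and 0 in DESeq2, where 0.657%, 9.98% and 1.49% of all genes passed by these 3 rules. The log2 fold changes of DDAH1-transgenic against wild type mice lay between -0.26 for Il5ra and 0.43 for Ear1, with SE from 0.24 to 0.96. Rnase2a, Prg2, Epx and Ccr3 were too low to be tested. For Rnase2a, 4 counts against 1 gave a ratio of 4.56 with a 95% exact counting interval from 0.451 to 224.5.

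The last test asked whether the genotype difference after HDM differed from that after PBS, in a fit of all 8 libraries. Treatment and the sex of the mice cannot be told apart in this test. Of 9 tested genes 0 passed in edgeR, where 1.76% of all genes did, with 3 at an unadjusted p under 0.05 (14.7% of all genes) and 1, Ear2, in DESeq2 (4.29%). The value for Ear2 was -1.07 on the log2 scale (SE 0.29, adjusted p = 0.0757 in edgeR and 0.0163 in DESeq2) and that for Ear10 -1.07 (SE 0.50, adjusted p = 0.326). For Rnase2a it was -4.15 (SE 1.52, adjusted p = 0.199), and 0.0167 without PBS-treated DDAH1-transgenic replicate 1, which holds the 4 PBS counts of that genotype. The size of the HDM response of Rnase2a therefore could not be compared between genotypes at this depth, since its PBS level is known from 1 and 4 counts. Prg2 had 3.01 (SE 1.52, adjusted p = 0.37), Siglecf 0.95 (SE 0.70, adjusted p = 0.577) and Ear1 -0.51 (SE 0.38, adjusted p = 0.58). With the length offset 215 genes passed in all, 35.4% of them higher, beside 279 and 59.9% without it.

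Among 13 cytokines and chemokines that act on eosinophils, 9 could be tested after HDM, and 1, Il33, was lower in DDAH1-transgenic mice (log2 fold change -1.09, SE 0.18, adjusted p = 0.00759 in edgeR). Of all genes 2.44% passed in this comparison, 0.599% as lower. The median of the 9 was -0.54, beside 0.01 for all genes. In wild type mice 5 of 8 rose after HDM, namely Ccl11, Ccl24, Ccl7, Ccl8 and Il33, of which Ccl11 and Ccl24 encode eotaxins, the ligands of Ccr3, where 4.44% of all genes rose. Ccl24, with 1 and 0 counts after PBS and 58 and 109 after HDM, passed the low-count filter through the HDM libraries. Ccl11 rose by 3.79 on the log2 scale (SE 0.40, adjusted p = 3.25e-05) and did not pass between the genotypes after HDM (-0.42, SE 0.44, adjusted p = 0.694). Its 2 libraries of HDM-treated DDAH1-transgenic mice were uneven, at 13.9 and 42.45 CPM, beside 38.3 and 39.4 CPM in HDM-treated wild type mice. In DDAH1-transgenic mice 5 of 7 rose, namely Ccl11, Ccl5, Ccl7, Ccl8 and Il33, where 8.43% of all genes did. Il5, the main eosinophil growth factor, had at most 10 counts in a library, and Il3 and Il25 had none.

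Of 12 other receptors and adhesion molecules, 11 were tested, and 1, Csf2ra, a chain of the GM-CSF receptor, was lower in DDAH1-transgenic mice after HDM (log2 fold change -1.32, SE 0.30, adjusted p = 0.0446 in edgeR), with a median of -0.21 for the 11. Of all genes 2.44% passed in this comparison, 0.599% as lower. After HDM 4 of the 11 rose in wild type and 5 of the 11 in DDAH1-transgenic mice, where 4.44% and 8.43% of all genes did. None of 6 tested transcription regulators of eosinophil development passed between the genotypes after HDM in edgeR (2.44% of all genes), with 1 at an unadjusted p under 0.05 (16.2%). Gata1, which commits progenitors to the eosinophil lineage, had at most 8 counts in a library, and Cebpe had none. None of 3 tested genes of granules and lipid mediators and none of 3 other ribonucleases of the same superfamily passed either, with 0 at an unadjusted p under 0.05 in each list (16.2% of all genes). In DESeq2, where 6.07% of all genes passed in this comparison, 0 genes of these 3 lists did. Alox15, a lipoxygenase, had 0 and 189 counts in the 2 libraries of HDM-treated DDAH1-transgenic mice, another gap within 1 pool.

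Summed markers of alveolar macrophages, and the summed cytokines and chemokines, had the same order of group means as Rnase2a and Ear2. In the alveolar macrophage list not each gene had it. The 12 genes of that list summed to between 736 and 758 CPM in PBS-treated wild type, 9985 and 10250 in HDM-treated wild type, 915 and 960 in PBS-treated DDAH1-transgenic and 4189 and 5177 in HDM-treated DDAH1-transgenic mice. Most of this was Chil3, a chitinase-like protein of macrophages, and without it the sums were 353 to 385, 1009 to 1060, 407 to 453 and 806 to 920 CPM. After HDM 6 of the 12 rose and 1, Fabp1, fell in wild type mice (4.44% and 2.30% of all genes), and 6 of the 12 rose in DDAH1-transgenic mice (8.43%). In wild type mice Marco (log2 fold change -2.32, SE 0.72) and Pparg (-0.48, SE 0.46) also had values below 0 and did not pass in edgeR. Between the genotypes after HDM 1 of the 12, Chil3, was lower (log2 fold change -1.21, SE 0.14, adjusted p = 0.00157 in edgeR), where 0.599% of all genes were, and the median of the 12 was -0.12. The 8 markers of monocytes and other macrophages summed to 225 and 237 CPM in PBS-treated wild type, 601 and 619 in HDM-treated wild type, 153 and 166 in PBS-treated DDAH1-transgenic and 512 and 562 in HDM-treated DDAH1-transgenic mice. After HDM 5 of the 8 rose in wild type and 7 of the 8 in DDAH1-transgenic mice (4.44% and 8.43% of all genes). None passed between the genotypes after HDM in edgeR (2.44% of all genes), with 0 at an unadjusted p under 0.05 (16.2%). Ear1, Ear2 and Siglecf are known from these cells as well as from eosinophils, and the part of macrophages in the values of the ribonucleases was not tested. Markers of mast cells and basophils, 9 genes, summed to 77.0 and 103 CPM in HDM-treated wild type and to 47.1 and 55.0 CPM in HDM-treated DDAH1-transgenic mice. Most of this was Hdc, an enzyme of histamine synthesis, and the other 8 genes summed to 2.31 and 11.5 and to 1.35 and 4.34 CPM. Of the 9 genes 2 could be tested between the genotypes after HDM, and neither passed in edgeR (2.44% of all genes), with 1 at an unadjusted p under 0.05 (16.2%). DESeq2 called 0 genes of this list and 0 of the monocyte and macrophage list between the genotypes after HDM, where it called 6.07% of all genes. Those of B cells, which can carry the receptor encoded by Il5ra, summed to 1053 and 1133 and to 2046 and 2154 CPM in the same groups, and without Jchain, the joining chain of secreted antibodies, the other 4 genes summed to 324 and 381 and to 272 and 427 CPM. Of these 5 genes 1, Jchain, passed between the genotypes after HDM in edgeR, where 2.44% of all genes did, and Il5ra did not pass.

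**Figure D4:**
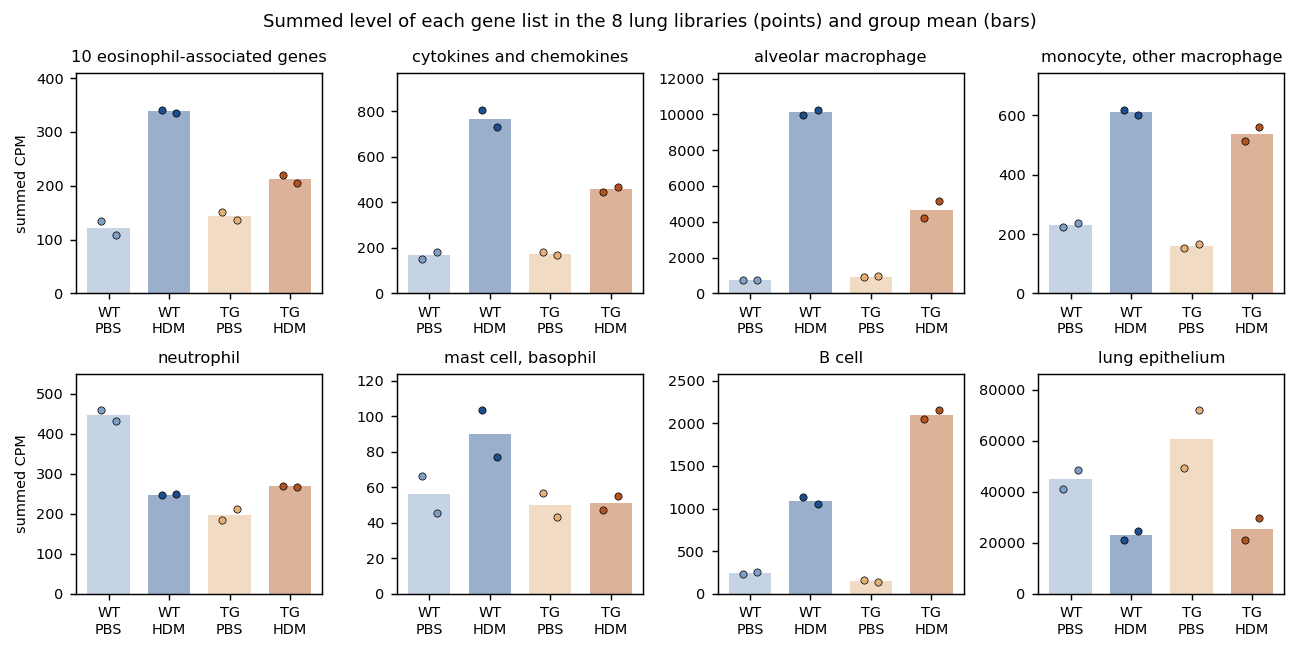
Summed TMM-scaled CPM of the 10 eosinophil-associated genes and of 7 other gene lists in the 8 libraries, with a separate axis from 0 for each list. Points are single libraries and bars the mean of the 2 libraries of a group. The 10 genes sum to 336 and 341 CPM in HDM-treated wild type mice and to 205 and 220 CPM in HDM-treated DDAH1-transgenic mice. The alveolar macrophage list and the list of cytokines and chemokines have the same order of group means.

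Over the 8 libraries, the 5 genes whose log2 CPM was most like that of Rnase2a, by Pearson correlation among 15867 genes, were Igtp (r = 0.992), Chil4 (0.986), Ch25h (0.985), Chil3 (0.984) and Esyt1 (0.983). Chil4, like Chil3 a chitinase-like protein, was 1516 CPM in HDM-treated wild type and 506 CPM in HDM-treated DDAH1-transgenic mice (means of 2 libraries), and 54.9 and 68.2 CPM in the PBS groups. Among the 10 genes Ear2 was the most like Rnase2a (r = 0.974), followed by Ear10 (0.820), Ear6 (0.749) and Ccr3 (0.719), while Prg2 (0.520), Il5ra (-0.153) and Siglecf (-0.229) were less so. These values describe 8 libraries in 4 pools and are led by the gap between HDM and PBS.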

How the data were processed

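RNA was pooled from 4 mice per group, amplified, and sequenced as single reads of 50 cycles. The authors aligned the reads to mm10 with TopHat and deposited, as raw counts, the reads on the coding parts of 23469 genes. Groups followed the sample titles. The 10 genes, the gene lists and the tests were chosen with earlier results of these data known. Names and positions came from RefSeq (GRCm38.p6), except that Ear3 and Ear12 were named from the tables of the study, and transcripts from GENCODE M21. Comparisons of 2 groups used only their 4 libraries, in edgeR 4.0.16 in R 4.3.3 (quasi-likelihood test, TMM, filterByExpr with a count minimum of 10), with a threshold of 0.05 on the Benjamini-Hochberg adjusted p over all genes tested, and the interaction used all 8. The standard error is the log2 fold change divided by the square root of F. DESeq2 1.42.0 and the settings listed at the end were alternatives, and sequences were aligned with mafft 7.526. Precision follows from 5694928 to 11929374 counts per library. Ratios against 1 to 4 counts have 95% exact intervals, which cover counting error only because PCR copies were counted as reads. The fits were tested on simulated counts. All 10 genes were named, then other Ear genes past the threshold or sharing reads, list genes past the threshold after HDM and those needed for small counts, the 5 genes most like Rnase2a (log2 CPM with a prior count of 2), and the label checks. Other genes were named after their values were seen (Prg3, Alox15, Il5, Gata1, Fabp1, Hdc and Jchain). Replicate numbers did not pair the libraries.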

Additional observations from a re-analysis of the deposited data

Results flagged for a closer look

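The identical rows of Ear3 and Ear12, relatives of the eosinophil ribonucleases, stood out because the genotype difference after HDM differed from that after PBS by a test of that difference itself. The value was -1.31 on the log2 scale for each of Ear3 and Ear12 (SE 0.31, adjusted p = 0.0338 in edgeR's quasi-likelihood test over 15868 genes). It comes from -1.02 after HDM and 0.25 after PBS, and treatment and the sex of the mice cannot be told apart in it. The levels were 47.7 and 37.6 CPM in PBS-treated wild type, 149.6 and 157 in HDM-treated wild type, 56.3 and 45.7 in PBS-treated DDAH1-transgenic and 70.4 and 77.1 in HDM-treated DDAH1-transgenic mice. Without single libraries the value stayed between -1.50 and -1.15. The adjusted p was above the threshold without PBS-treated wild type replicate 1 (0.0607) or 2 (0.202), HDM-treated wild type replicate 1 (0.101) or 2 (0.107), PBS-treated DDAH1-transgenic replicate 1 (0.126) or 2 (0.0514), and HDM-treated DDAH1-transgenic replicate 1 (0.0577). Both rows are 1 measurement, since their counts are identical. Whether they hold reads of Ear2 was not tested. Ear2 itself had -1.07 (adjusted p = 0.0757).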

How the results depend on the processing

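Over 41 log2 fold changes of the 10 genes and 454 alternative values, 401 kept direction and side of the threshold, 14 lost the call, 15 gained it and 24 changed sign. After HDM the 1 gene past the threshold between genotypes became 2 (Rnase2a and Ear2) with DESeq2, with no low-count filter, with the length offset and with all 8 libraries fitted together. The call was lost without either library of HDM-treated wild type mice, where nearly all calls over all genes were lost too. For HDM in wild type mice, 4 became 2 with the length offset, with the Ear family summed (Ccr3 and the sum) and with all 8 libraries, and 2 to 4 without single libraries (2 without PBS-treated replicate 2). For HDM in DDAH1-transgenic mice, 2 became 3 (with Ear2) with DESeq2, no filter and all 8 libraries, 1 with the length offset and with the Ear family summed, and 0 to 2 without single libraries (0 without PBS-treated replicate 2, 1 without PBS-treated replicate 1). For the interaction, 0 became 1 with DESeq2, no filter, the length offset and the Ear family summed, and stayed 0 without single libraries. After PBS the count stayed 0 under each of these settings, and median-ratio size factors changed no count of the 10 genes. The summed family had log2 fold changes of -0.82 between genotypes after HDM, 1.72 and 0.57 for HDM in wild type and DDAH1-transgenic mice, and 0.30 after PBS. This sum adds rows, in which a read with several alignments may be counted more than once.

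The replicate numbers did not pair the libraries (correlations of deviations from -0.0214 to 0.0317). With the replicate number as a block the counts were 1, 0, 4, 3 and 0 in the order genotype after HDM, genotype after PBS, HDM in wild type, HDM in DDAH1-transgenic mice and interaction, the third gene being Ear2 (0.80, adjusted p = 0.0214 in edgeR).

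Changes of sign came with single libraries left out, and the values then lay in these ranges. Between genotypes after HDM Ear1 lay between -0.0744 and 0.0103, Ear6 between -0.96 and 0.29 and Ccr3 between -9.30 and 0.0308. After PBS Ear6 lay between -0.66 and 0.34, Ear10 between -0.0176 and 0.74, Siglecf between -0.70 and 0.11 and Il5ra between -0.55 and 0.11. For HDM in wild type mice Prg2 lay between -1.12 and 2.66 and Il5ra between -0.34 and 0.46, and in DDAH1-transgenic mice Siglecf lay between -0.0740 and 0.93. In the interaction Rnase2a lay between -6.35 and 0.0167, Ear6 between -0.78 and 0.52 and Ccr3 between -7.85 and 1.40. With the length offset Ear1 (-0.94), Ear2 (-0.24) and Ear10 (-0.85) changed sign for HDM in DDAH1-transgenic mice. The cause was not tested.

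All genes past the threshold after HDM between genotypes numbered 370, against 922 with DESeq2, 1055 with no filter, 625 with the block, 160 with the length offset, 771 with all 8 libraries and 6 to 1595 without single libraries. After PBS they numbered 98, against 223 with DESeq2, 306 with no filter and 46 with the block, and 75 to 432 without single libraries. With the length offset they were 111, 55.9% of them higher, beside 42.9% of the 98. For HDM they numbered 1020 in wild type (1588 with no filter, 652 to 1661 without single libraries) and 2079 in DDAH1-transgenic mice (1325 with the length offset, 277 to 2676 without single libraries). The interaction had 279 (680 with DESeq2, 675 with no filter, 138 to 723 without single libraries). Rnase2a after PBS and Epx rest on few counts, as does Ccr3 in most libraries. The 2 libraries of a pool also differed for Ccr3, with 138 and 16 counts in HDM-treated wild type mice. In HDM-treated DDAH1-transgenic mice it had 22 and 0 counts, the 0 in the library with more reads.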
